A study of Mus musculus with 12 samples.

Results

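The Krüppel-like factors (KLFs) are zinc-finger transcription factors, and 10 of their genes, Klf2, Klf3, Klf4, Klf5, Klf6, Klf7, Klf9, Klf10, Klf13 and Klf15, were followed in cultured mouse fat cells before and after differentiation. They were taken by symbol from the platform annotation, from probe sets that carry a single gene symbol. All 10 were found, with 34 probe sets among them, and all 10 passed the filter on low signals, out of 18193 named genes and 13752 genes tested. Expression was read on 12 Affymetrix arrays, 3 in each of 4 groups. Brown adipocytes were cells of a brown fat line harvested at day 8, and brown preadipocytes were cells of that line at day 0. White adipocytes were 3T3-L1 cells harvested at day 10, and white preadipocytes were 3T3-L1 cells at day 0. Day 0 was 2 days after confluence in both lines, and the labels name no engineered allele in any group. Brown cells were induced for 3 days with 0.5 mM IBMX, which raises cyclic AMP, 1 µM dexamethasone, a glucocorticoid, 20 nM insulin, 125 µM indomethacin and 1 nM T3, the active thyroid hormone, and insulin and T3 were kept in their medium until harvest. White cells were induced for 3 days with 0.5 mM IBMX, 1 µM dexamethasone and 1 µg/mL insulin. In white cells insulin was kept for 2 more days after induction and then withdrawn. The line, the induction mix, the later medium and the harvest day all changed at once. A difference between lines therefore cannot be told apart from a difference between these treatments. 3T3-L1 is an established fibroblast-derived line, and the origin of the brown line is not given in the sources used here.

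KLFs bind GC-rich and CACCC-type sequences through 3 zinc fingers near the carboxyl end, and they differ in the regions that recruit coactivators or corepressors. Fat cell formation is a textbook setting for the family, because members act at different steps of the cascade that leads through the C/EBP factors to PPARγ, the nuclear receptor that runs the fat cell program. In mouse cells, KLF4 and KLF5 have been placed early in that cascade, KLF6 as a repressor of the preadipocyte gene Dlk1, KLF9 and KLF15 as later activators, and KLF2, KLF3 and KLF7 as brakes. KLF10 is known as an early response gene of the TGF-β pathway, and KLF13 has been described as an activator of PPARG in pig preadipocytes.

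Values are linear array signals, given for replicates 1, 2 and 3 in that order, and they cannot be set against each other across genes, since each probe set binds with its own strength. Changes are log2 differences of signal plus 16 with the standard error (SE) from a limma fit, and adjusted p is Benjamini-Hochberg adjusted over the 13752 genes tested, with genes called under 0.05. The labels do not say whether the replicates came from separate cultures, so p-values measure the spread between these arrays, which may be technical. Within groups, arrays correlated at 0.978 to 0.982 over all probe sets, against 0.885 to 0.935 between groups. The 5 adipocyte markers Adipoq, Fabp4, Cidec, Pparg and Lipe summed to 81437 to 84937 in brown adipocytes, against 45063 to 53238 in brown preadipocytes, sums in which the brightest probe sets, those of Fabp4 and Adipoq, weigh most. Adipoq, the adiponectin gene, was at 26002 to 26904 in brown adipocytes, against 16205 to 20791 in brown preadipocytes. The lipid droplet gene Cidec, at 3922 ± 115 in brown adipocytes against 349 ± 46.0 in brown preadipocytes (SD, n = 3 each), was further apart. The 5 markers summed to 104693 to 118454 in white adipocytes, against 8500 to 9331 in white preadipocytes. All 5 were called up in white cells, while in brown cells 4 were called up and 1 did not pass. Of 5 brown fat markers 4 rose in the brown line, Ucp1 among them, and 3 rose in the white line, while Dio2 passed in neither line. They summed to 23485 to 25242 in brown adipocytes, against 617 to 686 in brown preadipocytes. In the white line the sums were 1819 to 2018 in adipocytes, against 97.8 to 138 in preadipocytes. The 4 preadipocyte markers measured summed to 179 to 215 in brown adipocytes, against 6396 to 7056 in brown preadipocytes, and to 4076 to 4651 in white adipocytes, against 10589 to 12421 in white preadipocytes. All 4 fell in brown cells, and in white cells Dlk1 and Thy1 fell while Pdgfra (0.19, adjusted p = 0.113) and Cd34 (0.26, adjusted p = 0.439) did not pass. Of markers of other cell types, none of the 6 endothelial genes passed the filter on low signals, and their sum was at most 134 on any array. The 6 macrophage genes measured summed to 274 to 287 in brown adipocytes, 273 to 325 in brown preadipocytes, 708 to 784 in white adipocytes and 1032 to 1190 in white preadipocytes. Lyz2 weighed most in the white sums, at 459 to 539 in adipocytes and 787 to 975 in preadipocytes. It was at 2.94 to 23.5 in brown adipocytes and 41.5 to 50.03 in brown preadipocytes. Group means of Csf1r were 97.1 to 127, and those of Cd68 were highest in brown adipocytes (109) and lowest in white preadipocytes (35.1). Of the 6 genes, 4 passed the filter. The 5 skeletal muscle genes summed to 396 to 454 in brown adipocytes, 166 to 265 in brown preadipocytes, 835 to 886 in white adipocytes and 148 to 284 in white preadipocytes. Des weighed most in these sums, with group means of 266 in brown adipocytes, 130 in brown preadipocytes, 685 in white adipocytes and 133 in white preadipocytes. Of the 5 genes, 3 passed the filter. The larger differences in the macrophage and muscle sums thus mostly followed Lyz2 and Des, and cell type content was not tested. The 3'/5' signal ratio of beta-actin, a measure of RNA or labelling quality, was 2.39 to 2.48 in brown adipocytes against 1.43 to 1.56 in brown preadipocytes, and 2.08 to 2.35 in white adipocytes against 1.36 to 1.46 in white preadipocytes. The ratio and these marker sums moved with differentiation or line, and their part in the results was not tested. In RNA from whole cultures, fewer cells of a type and less RNA per cell cannot be told apart.

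The first question was which KLF genes change as preadipocytes become adipocytes. In brown cells 5 of the 10 rose and 5 fell. In white cells 3 rose, 5 fell and 2 did not pass. Klf9, Klf13 and Klf15 rose in both lines, Klf4, Klf6 and Klf7 fell in both, and Klf5 and Klf10 moved in opposite directions. Among all genes tested, 58.7% were called in brown differentiation (27.2% up and 31.6% down) and 61.3% in white differentiation (30.1% up and 31.2% down), so 10 and 8 calls among 10 genes stand against a background in which most genes changed. Across all genes, 34.8% were called in the same direction in both lines and 8.57% in opposite directions. Arrays of adipocytes and preadipocytes did not overlap for 10 of the 10 in brown cells and for 9 of 10 in white cells, Klf2 being the exception, against 65.2% and 66.1% of all genes. The brown change minus the white change passed for 7 of the 10, with 5 above 0 and 2 below, where 51.1% of all genes passed (23.6% above and 27.5% below). The median change of the 10 genes was 0.23 in brown and -0.26 in white cells, beside medians over all genes of -0.03 and 0.02.

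**Figure D1:**
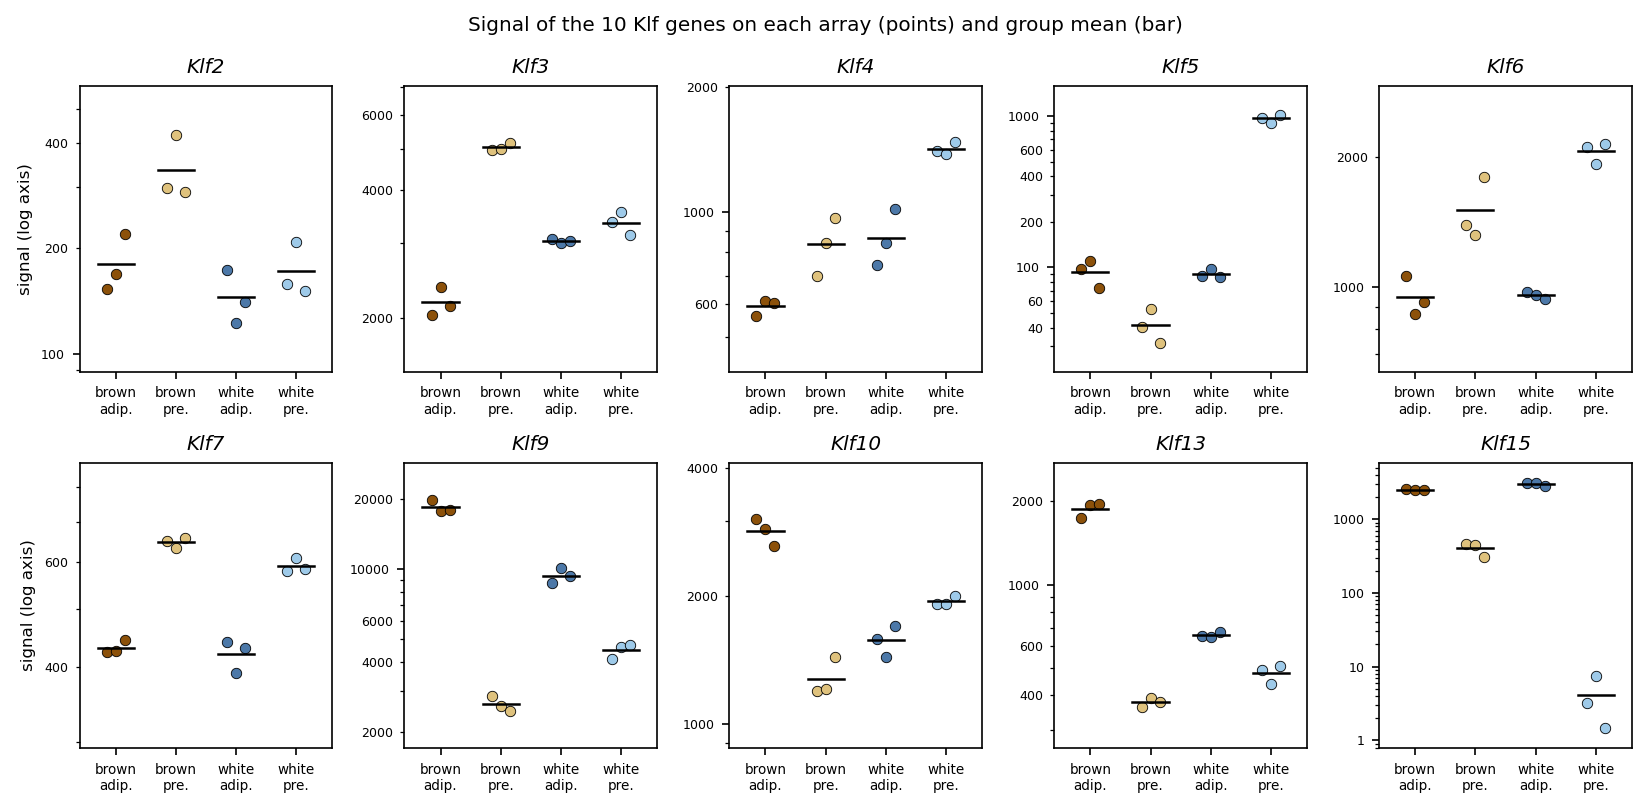
Signal of each of the 10 Klf genes on the 12 arrays, 1 panel per gene, with the signal on a log axis and the groups from left to right brown adipocytes, brown preadipocytes, white adipocytes and white preadipocytes. Points are arrays and bars are group means (n = 3). Klf15 lies at 2479.8 or above in both adipocyte groups and at 1.49 to 7.52 in white preadipocytes, and Klf5 stands apart in white preadipocytes, at 902 to 1021.

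Klf15 (chr6:90461043-90491803, GRCm38.p6) encodes the KLF that in mouse fat and muscle is linked to the glucose transporter gene Slc2a4 and to amino acid breakdown. In the brown line its signal was 2568, 2519 and 2479.8 in adipocytes, against 455, 441 and 308 in preadipocytes. The groups did not overlap, and the log2 change was 2.62 (SE 0.147, adjusted p = 1.42e-07), a 6.17-fold rise. In the white line Klf15 had 3060.3, 3085 and 2823 in adipocytes, against 3.18, 7.52 and 1.49 in preadipocytes. All 3 white preadipocyte values lay below the 40th percentile of their arrays (32.9 to 34.3), and the groups were far apart. The log2 change was 7.24 (SE 0.147, adjusted p = 9.94e-11), and measured against that percentile the rise was at least 89.4-fold. Its size depended on the pseudocount, from 5.49 with 64 to 9.39 with 1. The brown change was smaller than the white change by 4.61 on the log2 scale (SE 0.208, adjusted p = 6.88e-08), and that difference was -3.00 with a pseudocount of 64 and -6.72 with 1.

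Klf9 (chr19:23141226-23168129), which encodes a KLF induced by glucocorticoid and thyroid hormone in several tissues, had 19834, 17678 and 17991 in brown adipocytes, against 2865, 2591 and 2468 in brown preadipocytes. In white cells it had 8763, 10066 and 9351 in adipocytes, against 4142, 4635 and 4741 in preadipocytes. Brown adipocytes lay above every other array of the series for this probe set, and brown preadipocytes below. The rise was 6.97-fold in brown cells (log2 change 2.80, SE 0.0876, adjusted p = 2.73e-09) and 2.08-fold in white cells (log2 change 1.06, SE 0.0876, adjusted p = 2.04e-06). The rise was larger in the brown line by 1.74 (SE 0.124, adjusted p = 1.53e-06). T3 was part of the brown medium alone, and its part in this difference cannot be told apart from that of the line.

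Klf13 (chr7:63886351-63938915), a KLF of the same subfamily as Klf9, had 1743, 1933 and 1946 in brown adipocytes, against 364, 393 and 379 in brown preadipocytes. The white line had 654, 646 and 678 in adipocytes, against 494, 439 and 508 in preadipocytes. The groups did not overlap in either line. The log2 change was 2.26 in brown cells (SE 0.0728, adjusted p = 3.35e-09) and 0.45 in white cells (SE 0.0728, adjusted p = 0.000332), a difference of 1.81 (SE 0.103, adjusted p = 3.32e-07). The small white rise was not called with scaling to the hybridization controls (0.17, adjusted p = 0.0732) or with the mean of the gene's 3 probe sets (0.16, adjusted p = 0.378), in a range of adjusted p of 0.000132 to 0.378 over the 25 alternatives. That mean includes a probe set too dim to be tested, with group means of 7.45 to 19.3. The other tested probe set was called up in white cells (0.45, limma adjusted p = 0.0384 over all probe sets).

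The promoters of these 3 genes are shown because they rose together in both lines, beside that of Klf3, which fell in the brown line. Each is the 250 bases before the annotated start site from RefSeq (GRCm38.p6), 5′ to 3′ on the strand of the gene, and a promoter sequence was at hand for 8 of the 10 members. The Klf15 window lies inside the span given above for the gene. Capitals mark matches to the GC box GGGCGG or to the CACCC box, the letters CACCC, on either strand, and neighbouring matches may overlap.
Klf15 (chr6:90462326-90462575, plus strand): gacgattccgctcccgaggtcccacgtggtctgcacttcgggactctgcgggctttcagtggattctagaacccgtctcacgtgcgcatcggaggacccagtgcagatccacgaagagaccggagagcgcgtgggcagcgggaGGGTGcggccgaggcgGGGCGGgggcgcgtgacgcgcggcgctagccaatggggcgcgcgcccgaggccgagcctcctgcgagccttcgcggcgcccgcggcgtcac
Klf9 (chr19:23140976-23141225, plus strand): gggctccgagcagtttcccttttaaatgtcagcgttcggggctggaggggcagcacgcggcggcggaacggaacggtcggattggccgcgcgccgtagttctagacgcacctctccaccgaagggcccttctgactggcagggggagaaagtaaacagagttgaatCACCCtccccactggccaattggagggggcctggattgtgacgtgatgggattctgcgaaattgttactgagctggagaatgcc
Klf13 (chr7:63938916-63939165, minus strand): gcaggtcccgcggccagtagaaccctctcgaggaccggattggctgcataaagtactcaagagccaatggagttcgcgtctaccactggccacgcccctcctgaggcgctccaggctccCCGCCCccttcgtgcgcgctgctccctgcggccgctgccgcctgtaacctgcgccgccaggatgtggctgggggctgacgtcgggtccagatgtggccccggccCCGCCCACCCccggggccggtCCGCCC
Klf3 (chr5:64803271-64803520, plus strand): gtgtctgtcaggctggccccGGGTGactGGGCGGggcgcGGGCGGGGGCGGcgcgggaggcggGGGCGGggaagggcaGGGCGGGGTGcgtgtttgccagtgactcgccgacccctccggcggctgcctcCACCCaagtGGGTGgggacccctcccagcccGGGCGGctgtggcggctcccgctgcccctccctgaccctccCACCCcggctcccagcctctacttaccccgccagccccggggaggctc
The Klf15 promoter held 1 GC box and 1 CACCC match, that of Klf13 held 3 and 1, that of Klf9 held 0 and 1, and that of Klf3 held 6 and 5. Over the 8 promoters, 7 held a GC box and 6 a CACCC match, against 32.7% and 52.0% of 32851 mouse promoter windows of the same length. The core of the cyclic AMP element (TGACG on either strand) was present in 5 of the 8, against 17.8% of all windows. The core of the glucocorticoid response element (AGAACA on either strand) was found in 0 of the 8 and in 16.1% of all windows. The CCAAT box was found in 4 of the 8 and in 33.8% of all windows. The TATA box (TATAAA on either strand) was found in 0 of the 8 and in 12.4%. The GC content of these promoters was 59.6% for Klf9, 71.6% for Klf13, 72.0% for Klf15 and 78.4% for Klf3, against a median of 52.4% over all windows. GC boxes are more frequent in GC-rich sequence, and the counts of the other motifs depend on base composition too. These matches describe the letters in the windows and were not tested for binding.

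Klf5 (chr14:99298691-99313412) encodes a factor that in mouse cells acts early in adipogenesis, downstream of C/EBPβ and C/EBPδ. It had 98.2, 109.9 and 73.0 in brown adipocytes, against 40.6, 53.0 and 31.6 in brown preadipocytes. The white line had 88.1, 97.6 and 85.7 in adipocytes, against 969, 902 and 1021 in preadipocytes. White preadipocytes were the single group with a high signal, and both adipocyte groups met at about the same low level. The brown rise was 1.90-fold (log2 change 0.93, SE 0.152, adjusted p = 0.000389) and the white fall 9.20-fold (log2 change -3.20, SE 0.152, adjusted p = 2.89e-08). The changes differed by 4.13 between the lines (SE 0.215, adjusted p = 1.85e-07). Brown preadipocyte signals lay close to the 40th percentile of the arrays, 32.9 to 41.2, and 11 of the 12 arrays were above it.

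Klf10 (chr15:38291464-38300711), the TGF-β-inducible early gene, had 3030.45, 2870.2 and 2622.5 in brown adipocytes, against 1191, 1205 and 1435.5 in brown preadipocytes. In white cells it had 1586, 1434 and 1701 in adipocytes, against 1919.7, 1916 and 1995 in preadipocytes. Both pairs of groups were separate, in opposite directions. The brown rise was 2.21-fold (log2 change 1.15, SE 0.094, adjusted p = 2.41e-06) and the white fall 1.24-fold (log2 change -0.31, SE 0.094, adjusted p = 0.0165), a difference of 1.45 (SE 0.133, adjusted p = 9.27e-06). Without white adipocyte replicate 2, which had the lowest signal of its group, the white fall was 0.24 on the log2 scale and was not called (adjusted p = 0.0659, within 0.000321 to 0.0659 over the 25 alternatives).

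**Figure D2:**
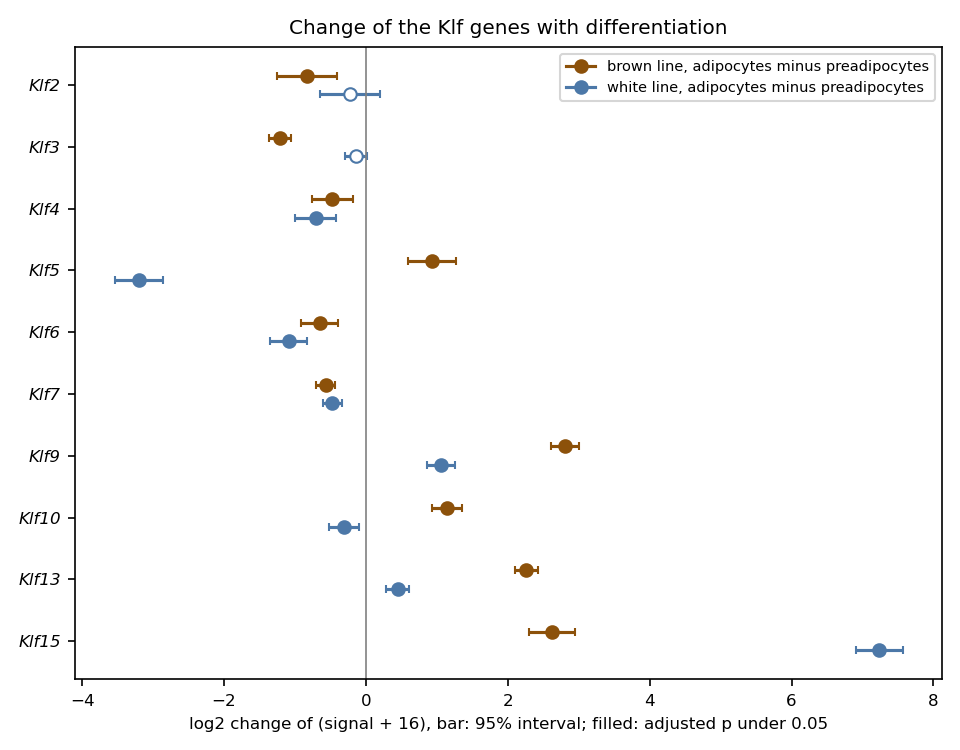
Log2 change of signal plus 16 with differentiation (x axis) for the 10 Klf genes (y axis), adipocytes minus preadipocytes, in the brown and the white line. Bars are 95% intervals and filled points are called. Klf5 and Klf10 lie on opposite sides of 0 in the lines, and Klf15 moves by 2.62 in brown and 7.24 in white cells.

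Klf4, Klf6 and Klf7 fell in both lines by modest amounts. Klf4 (chr4:55527137-55532475), a reprogramming factor that activates Cebpb early in mouse adipogenesis, had 563, 612 and 606 in brown adipocytes, against 703, 843 and 970.2 in brown preadipocytes. In the white line it had 744, 841 and 1016 in adipocytes, against 1401, 1377 and 1475 in preadipocytes. All adipocyte arrays lay below the preadipocyte arrays of their line, with log2 changes of -0.48 in brown (SE 0.130, adjusted p = 0.00933) and -0.71 in white cells (SE 0.130, adjusted p = 0.000732). The difference between these changes was 0.23, with a 95% interval of -0.18 to 0.64 (adjusted p = 0.324).

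Klf6 (chr13:5861489-5870393), the repressor of Dlk1 in mouse preadipocytes, had 1062, 868 and 923 in brown adipocytes, against 1396, 1324 and 1803 in brown preadipocytes. It had 977, 959.5 and 942 in white adipocytes, against 2114, 1925 and 2148 in white preadipocytes. The signal was higher in the preadipocytes of each line than in its adipocytes. Klf6 fell 1.57-fold in brown cells (log2 change -0.65, SE 0.117, adjusted p = 0.000772) and 2.13-fold in white cells (log2 change -1.09, SE 0.117, adjusted p = 1.5e-05). The brown fall was the smaller by 0.44 (SE 0.165, adjusted p = 0.0475), a call that was lost in 15 of 24 alternatives, including 9 of the 12 that left out an array. It held without white preadipocyte replicate 2, brown adipocyte replicate 2 or brown preadipocyte replicate 3 (adjusted p over all alternatives 0.00411 to 0.117).

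Klf7 (chr1:64029448-64122345), which in mouse and human preadipocytes represses differentiation, had 423, 425 and 444 in brown adipocytes, against 649, 632 and 658 in brown preadipocytes. Its values in white cells were 440.2, 391 and 431 in adipocytes, against 578, 608 and 584 in preadipocytes. Within each line, all adipocyte arrays lay below the preadipocyte arrays. Klf7 fell 1.48-fold in brown cells (log2 change -0.57, SE 0.0607, adjusted p = 1.8e-05) and 1.39-fold in white cells (log2 change -0.47, SE 0.0607, adjusted p = 5.7e-05). The difference between the lines was -0.09, with a 95% interval of -0.29 to 0.10 (adjusted p = 0.4).

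Klf2 and Klf3, both brakes on adipogenesis in mouse cells, passed the test in the brown line and not in the white line. Klf3 (chr5:64803521-64832901), which represses Cebpa together with the CtBP corepressors, had 2032, 2370.4 and 2137 in brown adipocytes, against 4969.9, 5008 and 5169.7 in brown preadipocytes. In white cells it had 3065, 3010.5 and 3030.5 in adipocytes, against 3357, 3545 and 3144 in preadipocytes. Brown adipocytes had the lowest and brown preadipocytes the highest signal of the series for this probe set. The brown fall was 2.31-fold (log2 change -1.21, SE 0.0708, adjusted p = 2.02e-07). The white change was -0.14 (95% interval -0.30 to 0.02, adjusted p = 0.116), and the difference between the lines was -1.07 (SE 0.1, adjusted p = 1.08e-05). Of the 5 other tested Klf3 probe sets, 3 did not show that difference between the lines. The white fall was called with equal medians (-0.26, adjusted p = 0.0279), with scaling to the hybridization controls (-0.42, adjusted p = 0.000684) and with the mean of all Klf3 probe sets (-0.36, adjusted p = 0.00378), in a range of adjusted p of 0.000684 to 0.317 over the alternatives.

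Klf2 (chr8:72319062-72321654), known in mouse cells as a repressor of the Pparg promoter, had 153, 169 and 220.3 in brown adipocytes, against 297, 420.2 and 289 in brown preadipocytes. Its values in white cells were 173, 123 and 140.3 in adipocytes, against 158, 209 and 152 in preadipocytes, and these groups overlapped. Replicates varied more than those of the other members, with an SE of 0.190 for each change. Klf2 fell 1.78-fold in brown cells (log2 change -0.83, adjusted p = 0.00343) and differed by -0.22 in white cells (95% interval -0.65 to 0.20, adjusted p = 0.338). The difference between the changes, -0.61 (SE 0.269), did not pass (adjusted p = 0.0853), except without brown adipocyte replicate 3 (-0.75, adjusted p = 0.0433) or white preadipocyte replicate 2 (-0.74, adjusted p = 0.0481), within 0.0433 to 0.181 over 24 alternatives.

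The second question was how the lines differ at each stage. Between brown and white preadipocytes, at day 0, 3 of the 10 genes were higher in brown and 6 lower, and 1 did not pass, where 55.1% of all genes were called (31.3% higher and 23.8% lower). Between brown and white adipocytes, 3 were higher in brown, 2 lower, and 5 did not pass, where 59.6% of all genes were called (30.1% higher and 29.5% lower). Arrays of the lines did not overlap for 10 of the 10 members in preadipocytes (62% of all genes) and for 6 of 10 in adipocytes (65.6% of all genes).

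Klf5 and Klf15 had the widest gaps between preadipocytes and showed no called difference between adipocytes. Klf5 was 17.2-fold lower in brown than in white preadipocytes (log2 difference -4.10, SE 0.152, adjusted p = 1.25e-08), and in adipocytes the lines differed by 0.03 (95% interval -0.31 to 0.37, adjusted p = 0.884). Klf15 was higher in brown than in white preadipocytes by 4.37 (SE 0.147, adjusted p = 6.91e-09), at least 11.8-fold against the 40th percentile of the white preadipocyte arrays. In adipocytes its difference was -0.24 (95% interval -0.57 to 0.09, adjusted p = 0.185), with all 3 brown arrays below the white ones. The interval of this difference uses the spread within all 4 groups, preadipocytes included. That difference was called with equal medians (-0.38, adjusted p = 0.0418) and in the fit of the adipocyte arrays alone (adjusted p = 0.0213), in a range of 0.0213 to 0.649. Brown preadipocytes, in which Klf15 was already present, also had the higher sum of adipocyte markers given above, and the part of that in the Klf15 difference was not tested.

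Klf9, Klf10 and Klf13 changed order between the stages. Each was higher in brown than in white adipocytes, by 0.98 for Klf9 (SE 0.0876, adjusted p = 4.56e-06), 0.85 for Klf10 (SE 0.094, adjusted p = 2.24e-05) and 1.48 for Klf13 (SE 0.0728, adjusted p = 5.43e-08). Each was lower in brown than in white preadipocytes, by log2 differences of -0.77 for Klf9 (adjusted p = 3.65e-05), -0.60 for Klf10 (adjusted p = 0.000325) and -0.33 for Klf13 (adjusted p = 0.00312). The Klf13 difference between preadipocytes was not called with the mean of the Klf13 probe sets (-0.07, adjusted p = 0.712, in a range of 0.000222 to 0.712). The other tested Klf13 probe set gave 0.10 there, with overlapping arrays, and was not called. Klf3 ran the other way, with -0.48 between adipocytes (SE 0.0708, adjusted p = 0.000186) and 0.59 between preadipocytes (SE 0.0708, adjusted p = 5.13e-05). These are values of the probe set used for the gene. The second brightest Klf3 probe set showed the same switch, with -0.31 and 0.82, both called over all probe sets. The other tested Klf3 probe sets gave 0.09, -0.16, 0.39 and 0.04 between preadipocytes and were not called. Of these, the first was called lower in brown adipocytes. The rest gave -0.09, 0.43 and 0.05 between adipocytes and were not called. The adipocyte difference of Klf3 was not called with the mean of its probe sets (-0.20, adjusted p = 0.0601, range 3.7e-06 to 0.0601).

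Klf4 was lower in the brown line at both stages, with log2 differences of -0.52 in adipocytes (SE 0.130, adjusted p = 0.00533) and -0.76 in preadipocytes (SE 0.130, adjusted p = 0.000629). The other Klf4 probe set was called between preadipocytes (-0.80, limma adjusted p = 0.00133 over all probe sets). Between adipocytes it gave -0.33 with overlapping arrays and was not called (adjusted p = 0.0905 in the same fit). Klf2 was higher in brown preadipocytes by 0.89 (SE 0.190, adjusted p = 0.00256), while its adipocyte difference of 0.28 did not pass (adjusted p = 0.234). Klf6 was lower in brown than in white preadipocytes (log2 difference -0.46, SE 0.117, adjusted p = 0.00704), and in adipocytes the difference was -0.02 (95% interval -0.28 to 0.24). Klf7 passed at neither stage, with 0.03 in adipocytes (95% interval -0.10 to 0.17) and 0.13 in preadipocytes (95% interval -0.01 to 0.26, adjusted p = 0.0998). With the mean of all Klf7 probe sets it was called at both, with 0.36 in adipocytes (adjusted p = 0.00164, range over the alternatives 0.00164 to 0.883) and 0.53 in preadipocytes (adjusted p = 0.000143, range 0.000143 to 0.889). Scaling to the hybridization controls also gave a called 0.21 in preadipocytes (adjusted p = 0.0295).

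**Figure D3:**
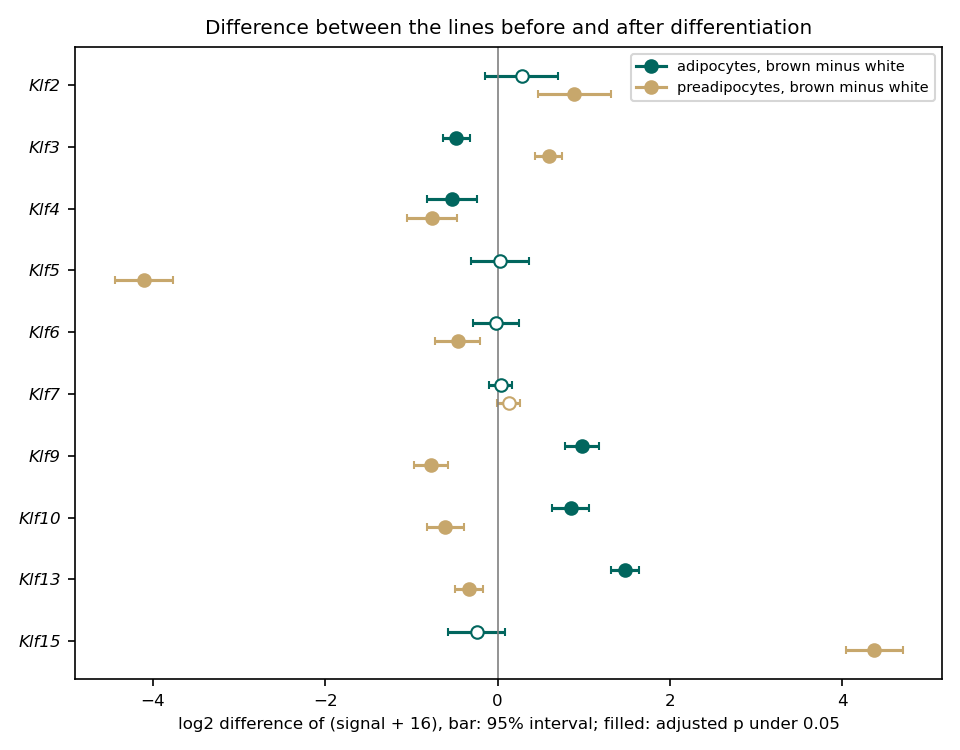
Log2 difference of signal plus 16 between the lines, brown minus white (x axis), for the 10 Klf genes (y axis), in adipocytes and in preadipocytes. Bars are 95% intervals and filled points are called. Klf5 and Klf15 differ by -4.10 and 4.37 in preadipocytes and lie near 0 in adipocytes, and Klf9, Klf10 and Klf13 change side.

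Put in order of level over the 4 groups, by the probe set used for each gene, Klf9 and Klf13 shared 1 order. Brown adipocytes came first, then white adipocytes, white preadipocytes and brown preadipocytes, and each step passed the test. The other tested Klf13 probe set did not show the last step, with 0.10 for brown minus white preadipocytes (limma adjusted p = 0.645 over all probe sets). Klf10 began with brown adipocytes too, followed by white preadipocytes, white adipocytes and brown preadipocytes, and the arrays of the last pair overlapped although the step of 0.30 passed (adjusted p = 0.0173). Klf15 ran from white adipocytes to brown adipocytes, brown preadipocytes and white preadipocytes, and its first step did not pass. Klf5 ran from white preadipocytes to brown adipocytes, white adipocytes and brown preadipocytes, and the adipocyte groups overlapped. Klf6 began with white preadipocytes, then brown preadipocytes, with overlapping adipocyte groups last. Klf7 began with brown preadipocytes and white preadipocytes, a step of 0.13 that did not pass, and ended with overlapping adipocyte groups. Klf4 began with white preadipocytes and ended with brown adipocytes, and white adipocytes and brown preadipocytes between them overlapped. For Klf3 the order was brown preadipocytes, white preadipocytes, white adipocytes and brown adipocytes, with the middle step of 0.14 not passing. Most other tested Klf3 probe sets were not called for its first step. Klf2 was highest in brown preadipocytes, and the steps among the other groups did not pass.

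Most members were measured by several probe sets, and the brightest stood for the gene. Of the 24 others, 22 passed the same filter. In a fit over all 31233 probe sets that passed, 19 of them were called in brown differentiation and 13 in white differentiation, and in each of the 5 comparisons every called one had the sign of the probe set used for its gene. The counts of 19 and 13 were not set against the share of all probe sets called in that fit. Klf9 had 7 probe sets, whose brown changes ran from 0.68 for the dimmest to 3.03 and were all called, while 4 of the 7 were called in white cells, where changes ran from -0.04 to 1.06. For Klf5, the second brightest probe set gave 0.68 in brown (adjusted p = 0.00616) and -1.76 in white cells (adjusted p = 7.89e-06), so its opposite changes did not rest on a single probe set. Of the 6 tested probe sets of Klf3, 1 gave 0.02 in brown cells (adjusted p = 0.867), and the others had brown changes of -1.39 to -0.80. The 2 dimmest of these fell in white cells too, by 1.05 (adjusted p = 0.00106) and by 0.80 (adjusted p = 0.00186), with differences between the lines of 0.04 and 0.001 that did not pass. For Klf7, 1 of the 3 others gave 1.08 between brown and white adipocytes (adjusted p = 0.000197) and 1.31 between preadipocytes (adjusted p = 6.67e-05), and another gave 0.53 between preadipocytes (adjusted p = 0.0239), neither of which the probe set used for the gene showed. Of the 4 other Klf6 probe sets, 2 were called lower in brown than in white adipocytes (-0.30, adjusted p = 0.0448, and -0.37, adjusted p = 0.0354), where the one used gave -0.02. Klf2, Klf10 and Klf15 rested on 1 probe set each. Several called sizes moved by over 1.5 times with another choice of probe sets, pseudocount or scaling, with the sign kept. Over the alternatives the brown minus white difference of the changes lay between 2.44 and 4.56 for Klf5, 1.19 and 1.95 for Klf13 and -1.15 and -0.44 for Klf3. The brown change lay between 0.57 and 1.16 for Klf5, 1.35 and 2.37 for Klf13 and -1.42 and -0.80 for Klf3. The white change lay between -3.45 and -1.76 for Klf5, 0.59 and 1.11 for Klf9, -0.74 and -0.40 for Klf7 and -0.58 and -0.24 for Klf10. Between brown and white adipocytes the range was 0.36 to 1.199 for Klf9. Between brown and white preadipocytes it was -1.30 to -0.68 for Klf9, -4.53 to -2.12 for Klf5, 2.76 to 6.47 for Klf15, 0.24 to 0.68 for Klf3, -0.60 to -0.07 for Klf13 and -0.74 to -0.37 for Klf6.

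**Figure D4:**
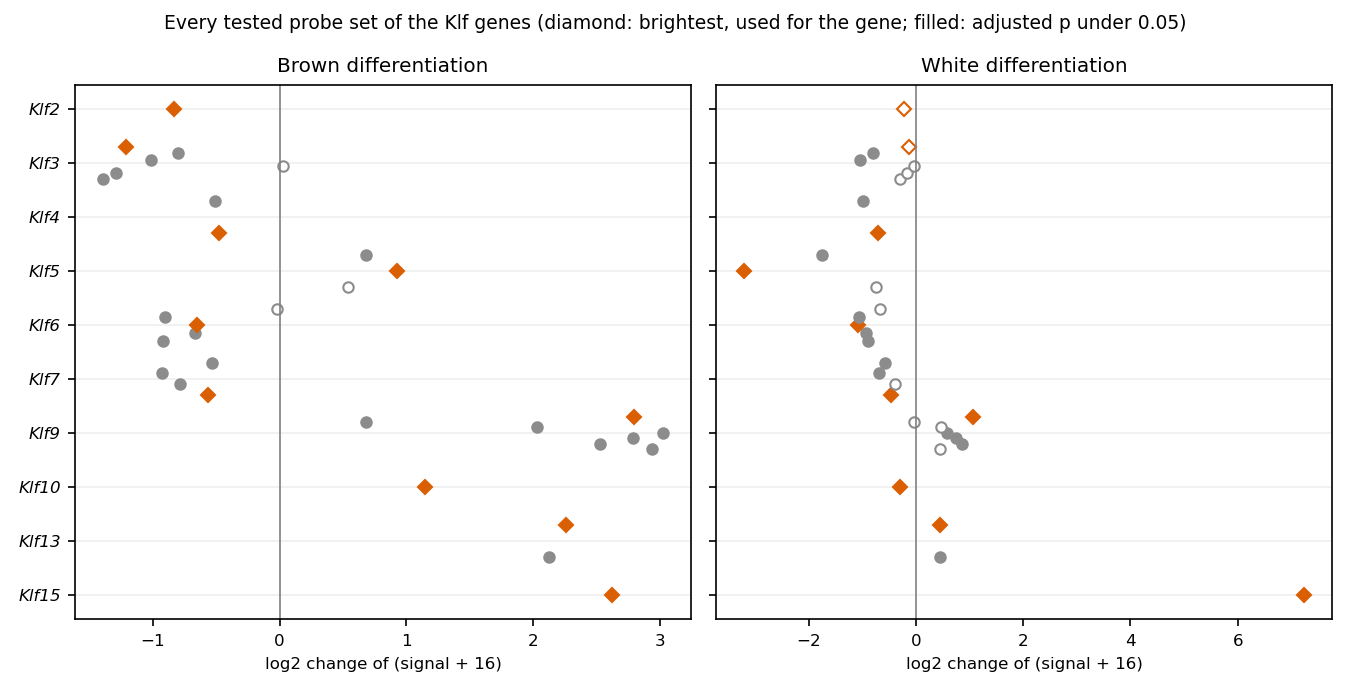
Log2 change with differentiation (x axis) of every tested probe set of the 10 Klf genes (y axis), in the brown line on the left and the white line on the right. Diamonds are the probe sets used for the genes, circles the others, and filled symbols are called. Called probe sets of a gene lie on the same side of 0 within each panel, and open symbols near 0 include a Klf3 probe set at 0.02 in the brown line.

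The members' profiles over the 12 arrays were compared with each other and with those of all tested genes by Pearson correlation. These correlations are of log2 signal plus 16, the 12 arrays hold 4 groups, and they are descriptions. Klf9 and Klf13 correlated at 0.94, Klf10 and Klf13 at 0.86, Klf6 and Klf7 at 0.83, and Klf4 and Klf6 at 0.81. Klf3 ran opposite to Klf9 (-0.96) and Klf6 opposite to Klf15 (-0.96). Klf15 was most like Cmbl, a hydrolase gene (r = 0.998), and Ivd, which encodes isovaleryl-CoA dehydrogenase of leucine breakdown (r = 0.998), and 637 tested genes correlated with it above 0.9. Klf9 was most like Dlst, a subunit of the α-ketoglutarate dehydrogenase complex (r = 0.990), and Mfn1, which fuses mitochondria (r = 0.988), and 314 genes lay above 0.9. Klf13 was most like Timm10, a mitochondrial import chaperone (r = 0.993), and the thioesterase gene Acot13 (r = 0.989). Klf5 was most like the TWEAK receptor gene Tnfrsf12a (r = 0.990) and the protease inhibitor gene Serpinb9b (r = 0.983). Klf10 was most like Gpd2, the mitochondrial glycerol phosphate dehydrogenase (r = 0.976), and Sephs2, of selenocysteine synthesis (r = 0.974), with 69 genes above 0.9. The nearest genes were Copa and Lox for Klf3 (0.986 each), Aimp1 and Pls3 for Klf4 (0.986 and 0.980), Tm7sf3 and Cpsf2 for Klf6 (0.979 and 0.976) and Samd14 and Rilpl1 for Klf7 (0.995 and 0.986). Klf2 was most like Ccdc157 and Fam72a (0.948 and 0.940).

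The other genes of the KLF and SP family were also followed. Of 16 listed, 13 had a probe set of their own and 11 passed the filter. In brown cells 2 rose and 9 did not pass, and in white cells 1 rose, 1 fell and 9 did not pass, where 58.7% and 61.3% of all genes were called. The median changes were 0.04 and -0.11, beside -0.03 and 0.02 for all genes. Klf11, a TGF-β-inducible relative of Klf10, rose to 551 ± 66.8 in brown adipocytes, against 377 ± 13.9 in brown preadipocytes (SD, n = 3 each, log2 change 0.52, limma adjusted p = 0.00109). It rose to 355 ± 18.6 in white adipocytes, against 195 ± 21.5 in white preadipocytes (log2 change 0.82, limma adjusted p = 3.63e-05). Sp3 rose by 0.35 in brown cells (adjusted p = 0.00192) and Sp1 fell by 0.26 in white cells (adjusted p = 0.0103), both genes of broadly expressed GC-box factors. Klf12, a repressor that binds CtBP, passed in neither line but was lower in the brown line, with 12.6, 20.01 and 0.419 in brown against 129, 122 and 180.4 in white adipocytes (limma adjusted p = 3.35e-05). In preadipocytes it had 1.60, 14.6 and 12.8 in brown against 277, 187 and 211 in white cells, and this difference passed too (limma adjusted p = 9.28e-06). All 6 brown values lay below the 40th percentile of their arrays, and against it Klf12 was at least 3.62-fold lower in brown adipocytes and at least 5.65-fold lower in brown preadipocytes. Sp4 passed in neither line (0.66 in brown and -0.57 in white cells), although the difference of 1.23 between them did (adjusted p = 0.0222). Klf1, Klf14, Klf16, Klf17, Sp6 and Sp7 passed in neither line, with changes between -0.40 and 0.68. Sp5 and Sp8 were too dim to be tested.

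The factors of the adipogenic cascade numbered 14, of which 7 rose, 5 fell and 2 did not pass in brown cells, and 9 rose, 3 fell and 2 did not pass in white cells. Their median changes were 0.34 and 0.74, beside -0.03 and 0.02 for all genes, of which 58.7% were called in brown and 61.3% in white cells. Pparg, the fat cell nuclear receptor, rose by 1.49 in brown (SE 0.0645, adjusted p = 2.34e-08) and 3.69 in white cells (SE 0.0645, adjusted p = 4.66e-11). Cebpa, its partner, rose by 0.84 in brown (adjusted p = 0.000312) and 4.63 in white cells (adjusted p = 8.8e-10). Cebpb, the early C/EBP factor, rose by 1.88 and 1.00 in brown and white cells (adjusted p = 2.52e-08 and 1.97e-06). Cebpd, the other early one, moved in opposite directions, by -1.43 in brown (adjusted p = 1.49e-06) and 0.66 in white cells (adjusted p = 0.000389), where Klf5 moved by 0.93 and -3.20. The difference in Cebpd change was -2.09 (SE 0.155, adjusted p = 2.13e-06). Egr2, which cooperates with KLF4 on Cebpb, fell to 320.2 ± 33.1 in brown adipocytes, against 739 ± 161 in brown preadipocytes (SD, n = 3 each, log2 change -1.15, limma adjusted p = 0.000261). The white line had 136 ± 23.1 in adipocytes and 147 ± 24.6 in preadipocytes, and the change did not pass (limma adjusted p = 0.647). Dlk1, the target that KLF6 represses, fell at least 25.1-fold in brown cells, where all 3 adipocyte values lay below the 40th percentile of their arrays, and changed by -3.02 in white cells. Klf6 fell in both as well.

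Genes linked to KLF15 in mouse tissues included amino acid, glucose and lipid enzymes. Of 10 tested, 9 rose and 1 fell in brown cells, and 9 rose and 1 did not pass in white cells, where 58.7% and 61.3% of all genes were called. The median changes were 2.08 and 3.11, beside -0.03 and 0.02 for all genes. Pck1, the glyceroneogenic enzyme gene, rose by 3.88 in brown cells. In white cells it rose at least 161-fold, its preadipocyte values all lying below the 40th percentile of their arrays. The lipase gene Pnpla2 rose by 4.07 in brown and 4.95 in white cells. Slc2a4, the insulin-responsive glucose transporter gene, had 2923 ± 122 in brown adipocytes, against 402 ± 128 in brown preadipocytes. In white cells it had 3348 ± 36.1 in adipocytes, against 30.4 ± 33.3 in preadipocytes (SD, n = 3 each). Its changes of 2.86 and 6.41 differed by -3.55 (SE 0.553, adjusted p = 0.000392). In white preadipocytes 2 of its 3 values lay below the 40th percentile, so the size of the white change depends on the pseudocount. Adm, which encodes the peptide hormone adrenomedullin, was the one that fell in brown cells (-3.98), and it rose by 1.99 in white cells. Acss1, a mitochondrial acetyl-CoA synthetase gene, was the one that did not pass in white cells (0.17). The genes of this list are also part of the fat cell program, and whether KLF15 acts on them here was not tested.

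**Figure D5:**
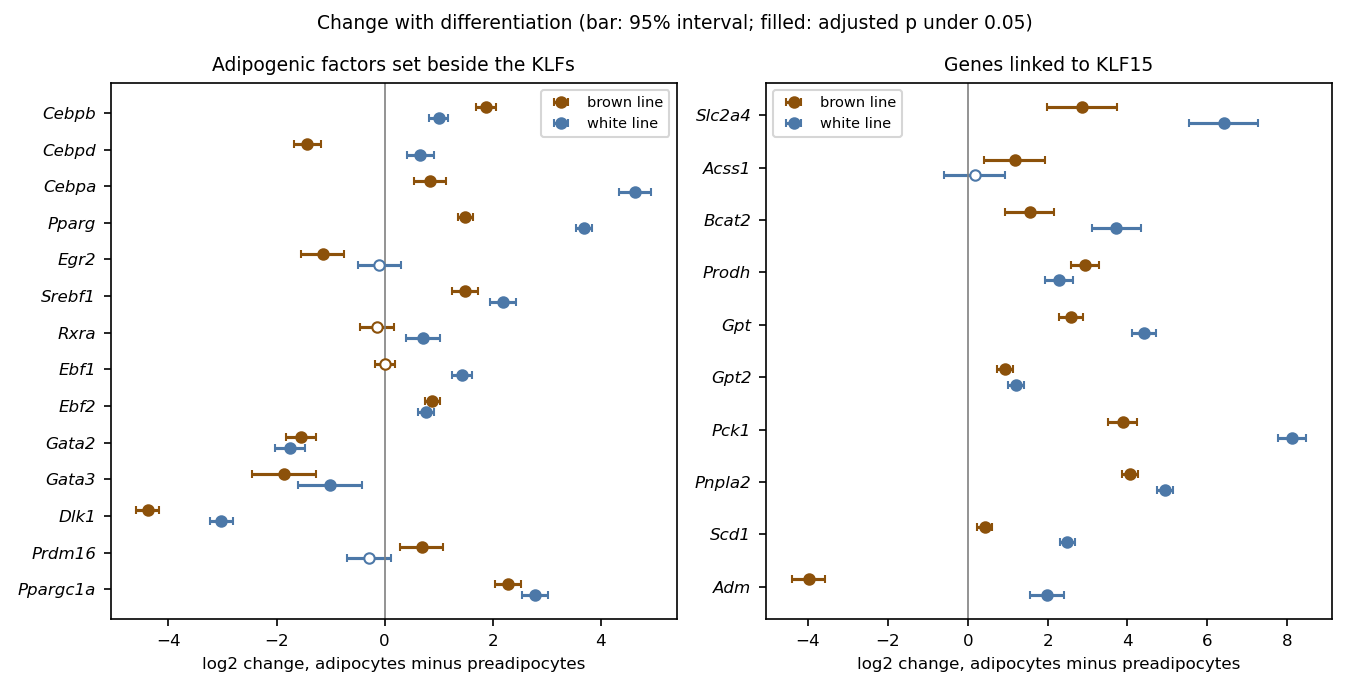
Log2 change of signal plus 16 with differentiation (x axis, adipocytes minus preadipocytes) for 14 adipogenic factors on the left and 10 genes linked to KLF15 on the right (y axes), in the brown and the white line. Bars are 95% intervals and filled points are called. Cebpd and Adm lie on opposite sides of 0 in the lines, and Pck1 and Slc2a4 change more in white cells.

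Glucocorticoid-induced genes, set beside Klf9 and Klf15 because dexamethasone was in both mixes, had 8 of 10 up and 2 down in each line. Dexamethasone was listed for the 3 days of induction only, and harvest was at day 8 or 10. Among all genes, 58.7% were called in brown and 61.3% in white cells. The median changes of the list were 0.89 in brown and 1.2 in white cells, beside -0.03 and 0.02 for all genes. Zbtb16, a strongly glucocorticoid-induced zinc-finger gene, rose by 4.12 in brown (adjusted p = 9.52e-08) and 3.45 in white cells (adjusted p = 2.49e-07). Nr3c1, the glucocorticoid receptor gene, rose by 0.73 in brown and 0.55 in white cells (adjusted p = 0.000529 and 0.00284). Sgk1, a kinase gene, fell in both lines, with changes of -3.32 in brown and -0.71 in white cells. Errfi1, a feedback inhibitor of EGF receptor signalling, fell by 2.57 in brown and rose by 1.71 in white cells. Fkbp5, another gene of the list, ran the other way, with changes of 1.06 in brown and -0.43 in white cells (adjusted p = 3.53e-06 and 0.00207).

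Immediate early genes, the class to which Klf2, Klf4, Klf6 and Klf10 are counted in serum-stimulated cells, moved both ways, with 3 of 14 up and 7 down in brown cells and 5 up and 5 down in white cells. Their median changes were -0.53 and -0.04, beside -0.03 and 0.02 for all genes, of which 58.7% were called in brown and 61.3% in white cells. Egr3 changed by -2.11 in brown and -3.13 in white cells, and the stress-response gene Atf3 rose in brown (adjusted p = 0.000167) and in white cells (adjusted p = 1.87e-06). All 3 white preadipocyte values of Atf3 lay below the 40th percentile of their arrays, and the white rise was at least 6.66-fold. Fos, a subunit of the AP-1 factor, fell by 0.75 in brown and rose by 1.74 in white cells. Of 6 tested genes of TGF-β signalling, set beside Klf10, 4 rose and 1 fell in brown cells and 2 rose and 3 fell in white cells. Their median changes were 0.47 and -0.23, and the same shares of all genes called stand beside these counts. The receptor gene Tgfbr1 rose by 0.24 in brown and 1.70 in white cells, and Smad3, a signal transducer, changed by -1.38 and -0.37. The inhibitory Smad7 did not pass in brown cells (-0.37) and fell by 1.45 in white cells.

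Among 12 tested genes of KLF corepressors, coactivators and ubiquitin ligases, 2 rose and 6 fell in brown cells, and 1 rose and 7 fell in white cells. Of all genes, 58.7% were called in brown and 61.3% in white cells. The median changes of the list were -0.22 and -0.35, beside -0.03 and 0.02 for all genes. The acetyltransferase gene Kat2b rose by 1.43 and 1.29 in brown and white cells, and the deacetylase gene Hdac1 changed by -0.92 and -1.05. Ctbp2, which encodes a partner of KLF3, changed by -0.36 in brown (adjusted p = 0.000607) and -0.82 in white cells (adjusted p = 1.05e-06). Hdac1 was also higher in the brown line at both stages, by 2.05 in adipocytes and 1.92 in preadipocytes (adjusted p = 6.33e-09 and 1.69e-08).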

How the data were processed

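Total RNA of 12 samples was labelled for 3' expression arrays, and the signal intensities deposited by the authors, 1 per probe set and array, come from Affymetrix Expression Console (processing notes of the submitters). Its version and algorithm are unknown here. The mean after trimming 2% at each end was 500.003 to 500.004 on every array, so totals per cell are not preserved, and the number of arrays limits the precision. Of 45101 probe sets, 34945 carried 1 symbol in the platform annotation, 932 several and 9211 were not listed. The brightest of a gene's probe sets stood for it. Signals were used as log2(signal + 16), for genes above the 40th percentile of the array on at least 3 arrays. limma 3.58.1 (R 4.3.3) fitted group means over all 12 arrays (lmFit, eBayes, 8 residual and 1.81 prior degrees of freedom), without a replicate block. The fit was tested on simulated data. Python 3.11.15, pandas 2.3.3 and matplotlib 3.10.9 served for promoters and plots. The members, the 7 gene lists and the markers were chosen with earlier results of these data known. Named are all members, all tested KLF and SP genes and the 3 genes of each other list with the largest change in either line. Also named are Cebpb, Cebpd, Egr2, Slc2a4 and Nr3c1, and the 2 genes most like each member. Acss1, Adm and Fkbp5, and Hdac1 between lines, were singled out after their values were seen. Alternatives were pseudocounts of 1 and 64, 3 other scalings, no filter and a 60th percentile filter, 2 other choices of probe sets, an intensity trend, fits of the arrays compared, the block, an adjusted p under 0.01, and each array left out. Replicate numbers were checked for pairing: deviations from group means of same-numbered arrays correlated at -0.03 to 0.07, so the numbers were not taken as pairs.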

Additional observations from a re-analysis of the deposited data

Results flagged for a closer look

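The change with differentiation differed between the brown and the white line for 7 of the 10 genes, by the test of the difference itself, where 51.1% of all genes were called. The brown change minus the white change was 4.13 for Klf5 (adjusted p = 1.85e-07), 1.81 for Klf13 (3.32e-07), 1.74 for Klf9 (1.53e-06), 1.45 for Klf10 (9.27e-06) and 0.44 for Klf6 (0.0475). The Klf6 call was lost in 15 of 24 alternatives, including 9 of the 12 that left out an array, so the count of 7 includes a gene near the threshold. It was -1.07 for Klf3 (1.08e-05) and -4.61 for Klf15 (6.88e-08). For Klf5 and Klf10 the changes had opposite signs in the lines, and for Klf9, Klf13, Klf6 and Klf15 the same sign with unequal size. Klf3 was called in the brown line and not in the white line. For Klf5 and Klf15, brown and white preadipocytes differed by -4.10 and 4.37. The adipocyte differences of 0.03 and -0.24 did not pass, although that of Klf15 was called with equal medians (-0.38, adjusted p = 0.0418) and in the fit of the adipocyte arrays alone (adjusted p = 0.0213). No explanation for these differences was tested.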

How the results depend on the processing

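Over the 25 alternatives, 12 of which left out an array, 1196 of 1240 changes of single members kept their direction and their side of the threshold, 21 lost and 10 gained a call, and 13 changed sign, none of them called in either setting. The sign changes were those of Klf5 between brown and white adipocytes with quantile normalization (-0.12), equal medians (-0.0829), and without single adipocyte arrays (white replicate 3, brown replicate 1 or 2), in a range of -0.0771 to 0.173 over the arrays left out. For Klf7 they were between adipocytes with quantile normalization (-0.0918), equal medians (-0.0943) and without white adipocyte replicate 2 (range -0.0156 to 0.0675), between preadipocytes with equal medians (-0.14), and in the difference of the changes with equal medians (0.0496). For Klf6 they were between adipocytes with scaling to the hybridization controls (0.13) and without brown adipocyte replicate 2 or 3 (range -0.0989 to 0.0444). Members lower in brown than in white adipocytes numbered 1 with the mean of all probe sets, against 2, as Klf3 was no longer called (-0.20, adjusted p = 0.0601). Why the Klf3 probe sets differ was not tested. Total counts of genes called stayed within 1.5 times, while the split by direction moved further between preadipocytes with equal medians. Scaling to the hybridization controls moved the median change of all genes to -0.22 in brown and -0.23 in white cells, with 2639 genes up and 5629 down in brown cells (deposited scaling 3736 and 4342) and 2949 up and 5645 down in white cells (4141 and 4286). Between adipocytes that scaling gave 4899 higher and 3184 lower in brown (4140 and 4061), with a median of 0.13. Equal medians gave 2729 higher and 4953 lower in brown preadipocytes (4307 and 3274), with a median of -0.18, and a median of -0.12 between adipocytes. Klf10 in white cells, with -0.31, missed the threshold at an adjusted p under 0.01. With the replicate block, no call of a member changed, the changes themselves stayed as given (7.24 for Klf15 in white cells), and 7977 genes were called in brown and 8345 in white cells (8078 and 8427 without it). In the comparison of all 4 groups, a fit of the arrays compared is the fit of all 12, so it was not repeated. Signals near the 40th percentile (Klf5 in brown preadipocytes) or far below it (Klf15 in white preadipocytes) limit what their sizes show.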
